A study of Oryza sativa with 12 samples.

Results

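The histone variant H2A.Z was compared between the oschz1 mutant of rice and NIP chromosome by chromosome. All H2A.Z peak tables of the series were taken, 2 libraries of oschz1 and 2 of NIP, which are 4 of its 12 samples, and their peaks were summed over chromosomes 1 to 12 and over bins of 1 Mb. The question was whether the difference between the genotypes is even along and between the chromosomes. NIP is the unmutated reference rice, Nipponbare, and oschz1 carries a 1-nt deletion in OsChz1 made with CRISPR/Cas9. Per the study's methods the mutant used for sequencing is 1 homozygous line, oschz1-1, freed of the editing transgene, so the line and the mutation cannot be told apart here. Both groups were 30-day-old seedlings grown in long days, and each library came from pooled seedlings. The peak tables hold no value that checks the mutation itself. The 4 H3 libraries, 2 of each genotype, served only to show where H2A.Z differs from the core histone.

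H2A.Z replaces the ordinary histone H2A in part of the nucleosomes. It is carried to chromatin as a dimer with H2B by chaperones, among them Chz1 in yeast, and is exchanged into nucleosomes by the SWR1 remodelling complex. In plants such as Arabidopsis it marks the first nucleosomes of genes and the bodies of lowly expressed, responsive genes, and it is sparse in the methylated, transposon-rich chromatin around centromeres. A chromosome with long gene-poor stretches is therefore known to carry less of it per Mb.

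The following quantities describe each chromosome and bin. Enrichment is the sum of ChIP reads in a library's peaks over the sum of input reads in the same peaks, with the input scaled to the size of the ChIP library. Peaks per Mb and covered kb per Mb give how many peaks there were and how much sequence they spanned, and mean width is the quotient of both. Chromosome length was the end of the last peak in any library, 373.1 Mb in all on the MSU rice genome. On the 12 chromosomes the peaks of the NIP libraries held 22185471 and 16880863 ChIP reads, and those of the oschz1 libraries 20066279 and 18562697. NIP replicate 2 thus had the fewest reads, and it also had the lowest covered length.

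Over all 12 chromosomes the enrichment was 2.27 and 2.28 in the NIP libraries and 2.13 and 2.11 in the oschz1 libraries. The mutant was lower by a small margin, and the groups did not overlap. NIP averaged 2.28 ± 0.0065 and oschz1 averaged 2.12 ± 0.015 (SD, n = 2 each), a change of -6.71%. The peaks covered 178.2 and 171.6 kb per Mb in NIP and 185.3 and 182.9 kb per Mb in oschz1, a change of +5.25%. Mean peak width was 1333 and 1334 bp in NIP and 1416 and 1399 bp in oschz1, a change of +5.55%. Peaks of the mutant were thus wider and spanned more sequence in both libraries. Peak number overlapped, with 133.7 and 128.7 peaks per Mb in NIP and 130.9 and 130.7 in oschz1. A two-sided exact permutation test of 2 libraries against 2 cannot give a p below 0.33, which is what it gave for enrichment, covered length and width, and it gave 1.0 for peak number. When the peaks were limited to those 2-fold or more above input, the covered length was lower in the mutant, with 114.9 and 111.7 kb per Mb in NIP against 107.9 and 103.5 in oschz1. That limit is set on each library's own fold, which is lower in oschz1, and it left 75.8 and 75.3 peaks per Mb in NIP but 68.0 and 66.4 in oschz1. With peaks of a q-value of at most 1e-10 the covered length stayed higher in the mutant, by 3.73%, with 155.3 and 145.8 kb per Mb in NIP overlapping 158.6 and 153.7 in oschz1.

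The loss of enrichment was spread over every chromosome at a like size. In NIP the chromosome means lay between 2.25 on chromosome 2 and 2.29 on chromosome 6, and in oschz1 between 2.10 on chromosome 2 and 2.14 on chromosome 6. On chromosome 1, the longest, the values were 2.29 and 2.29 in NIP and 2.15 and 2.13 in oschz1. On chromosome 9, with the largest fall, they were 2.26 and 2.29 against 2.12 and 2.11, a change of -7.10%. On chromosome 10, with the smallest fall, they were 2.28 and 2.27 against 2.15 and 2.12, a change of -6.16%. Both oschz1 libraries were below both NIP libraries on 12 of 12 chromosomes. By edgeR's quasi-likelihood test with Benjamini-Hochberg adjustment 12 of 12 chromosomes fell (100%), by 0.092 to 0.106 on the log2 scale. All chromosomes of a library share its immunoprecipitation and its scaling, so these 12 calls are not independent of each other and their p-values are too small. A fall common to all chromosomes cannot be told apart here from a difference between the libraries in immunoprecipitation, which was not tested.

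**Figure D1:**
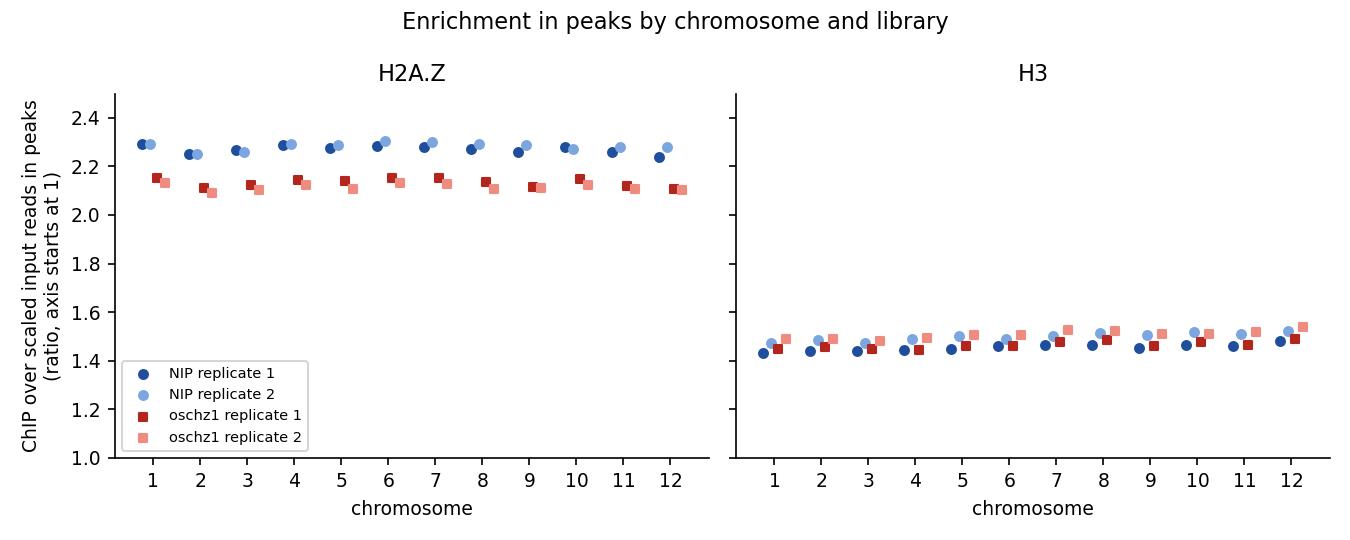
ChIP over scaled input reads in peaks (ratio, axis from 1) for each chromosome, with H2A.Z on the left and H3 on the right; each point is 1 library. The 2 oschz1 libraries lie below the 2 NIP libraries on all 12 chromosomes for H2A.Z, and the genotypes are mixed for H3.

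Evenness was tested after each library was scaled to its own enrichment over all chromosomes. With that scaling 0 of 12 chromosomes (0%) departed from the genome in edgeR, none of them even at an unadjusted p under 0.05, and limma also called 0, with adjusted p between 0.861 and 0.96. The SD of the log2 change over the 12 chromosomes was 0.0039, while the differences between replicates alone give 0.0055. The changes of the chromosomes were thus no further apart than replicates of 1 genotype are. The limma estimate for chromosome 10, the farthest from the genome, was 0.0085 with an SE of 0.0054 on the log2 scale, and that of chromosome 9 was -0.0061. Departures of this size did not pass with 2 libraries per group.

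H3 gave the reference. H3 enrichment was 1.451 and 1.496 in NIP and 1.462 and 1.505 in oschz1, and its log2 change was between 0.001 and 0.018 over the chromosomes, with limma adjusted p of 0.975 on each. The difference between the change of H2A.Z and that of H3 was tested as the interaction of antibody and genotype in limma. It was below 0 on 12 of 12 chromosomes, from -0.093 on chromosome 10 to -0.117 on chromosome 8 with an SE of 0.032, and adjusted p was at most 0.00627. These calls too share their libraries, so their p-values are too small. Leaving out any of the 8 libraries left 12 of 12 called.

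The same evenness was seen along the chromosomes. Of 379 bins of 1 Mb, 376 had a mean of at least 20 peaks and were tested. The fitted enrichment change was below 0 in 376 of 376 bins, and the groups did not overlap, with oschz1 lower, in 363 (96.5%). By edgeR 349 bins fell (92.8%) and 0 rose (0%), while 27 did not pass. These sums run over peaks called separately in each library. On the 7107 peaks of identical extent in all 4 libraries 101 bins fell (26.9%) and 0 rose (0%), so most of the 349 calls were not kept. These peaks are a small part of the 48025 to 49871 of each library. On them 93.9% of the bins had a change below 0, with a median of -0.11 on the log2 scale against -0.10 over all peaks. Relative to the library, 0 bins were called lower and 0 higher (0%), with 13 and 14 at an unadjusted p under 0.05. DESeq2 and limma also called 0 bins relative to the library. Over the bins the SD of the log2 change was 0.029, against 0.027 from the differences between replicates and 0.019 from counting error alone. The spread along the genome was therefore 1.09 times that between replicates.

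The extremes show the range, and both were chosen after their values were seen. In Chr4:14000001-15000000, a bin with 35 to 41 peaks per library, the enrichment was 2.504 and 2.571 in NIP and 2.10 and 2.21 in oschz1, a log2 change of -0.23 with an SE of 0.04. In Chr7:6000001-7000000, with 80 to 90 peaks, it was 2.22 and 2.16 in NIP and 2.13 and 2.24 in oschz1, a log2 change of -0.004 with an SE of 0.03. The groups overlapped in the second bin and not in the first. Relative to the library the log2 changes were -0.13 and 0.096, and neither passed the adjusted threshold with 2 libraries per group. On chromosomes 2, 3 and 8 every bin tested fell, 36, 37 and 29 of them. Chromosome 10 had the smallest share, 19 of 24.

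**Figure D2:**
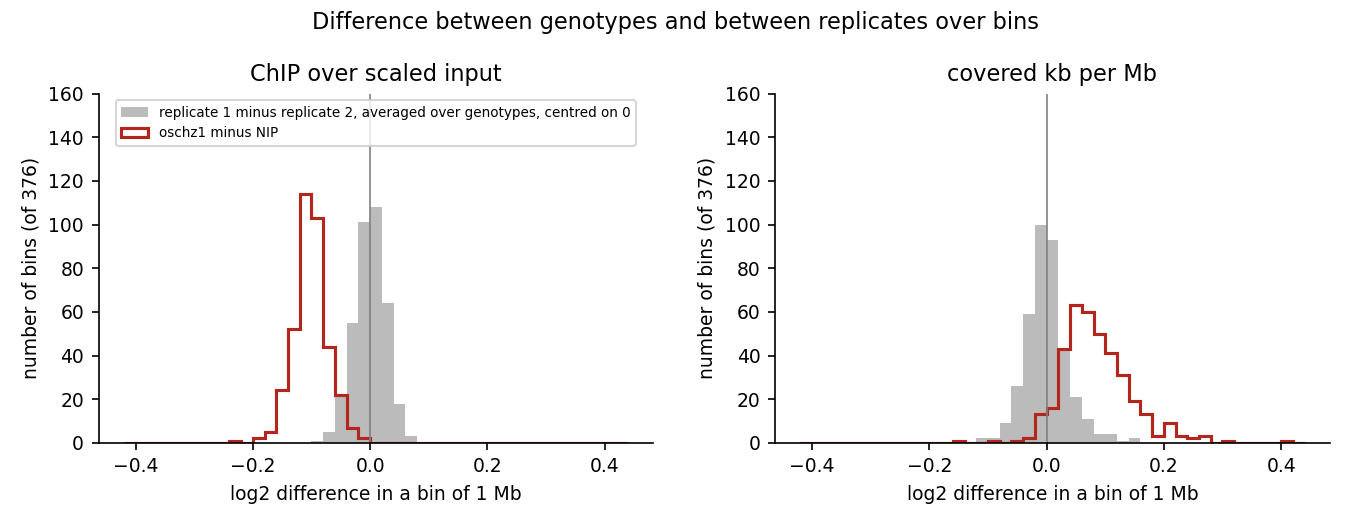
Distribution over 376 bins of 1 Mb of the log2 difference oschz1 minus NIP (red line) and of the difference between replicates averaged over genotypes and centred on 0 (grey bars), for enrichment on the left and covered length on the right. The red distribution of enrichment is shifted below 0 with an SD of 0.029, while that of covered length is wider than the replicates, 0.060 against 0.036, with a tail to the right.

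Covered length differed from this pattern, because its change in percent was not even. The groups did not overlap, with oschz1 higher, on 12 of 12 chromosomes, from +3.66% on chromosome 1 to +9.77% on chromosome 11. On chromosome 1 the peaks covered 229.0 and 222.1 kb per Mb in NIP and 235.0 and 232.6 in oschz1. On chromosome 3, the most densely covered, the values were 238.6 and 231.2 against 245.9 and 241.9, a change of +3.84%. Chromosome 11 had 130.9 and 125.4 kb per Mb in NIP and 142.1 and 139.3 in oschz1. Chromosome 12, the least covered, had 121.9 and 115.3 against 128.8 and 127.0, a change of +7.90%. The sparsely covered chromosomes thus gained more in relative terms than the densely covered ones. In absolute terms the gain went from 7.9 kb per Mb on chromosome 10 to 12.5 on chromosome 11. Chromosomes 1, 3, 8 and 12 gained 8.2, 9.0, 9.5 and 9.4 kb per Mb, against 9.2 over the genome. A gain of a given length is a larger percentage where less was covered. Over bins grouped by peak number the gain in kb was not equal, as given below. Across the 12 chromosomes, which share their libraries, Pearson's r between mean covered length and its log2 change was -0.84. In limma 8 of 12 chromosomes rose (66.7%), and chromosomes 1, 2, 3 and 4 did not pass. The number called moved with single libraries: 12 passed without NIP replicate 1, 8 without NIP replicate 2, 0 without either oschz1 replicate and 0 at a q-value of at most 1e-10. The median log2 change was 0.068 and 0.082 without an oschz1 replicate, against 0.075 with all libraries, while the SE went from 0.031 to 0.050.

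Relative to its library's covered length, chromosome 11 rose by 0.061 on the log2 scale (SE 0.007, limma adjusted p = 6.2e-08). Chromosome 12 rose by 0.036 (adjusted p = 1.3e-04) and chromosome 8 by 0.018 (adjusted p = 0.041), which makes 3 of 12 (25%). Chromosome 1 fell by 0.022 (adjusted p = 0.015) and chromosome 3 fell by 0.020 (adjusted p = 0.027), which makes 2 of 12 (16.7%). As with enrichment, the chromosomes share their libraries, so these calls are not independent and their p-values are too small. The same holds for covered length above and for the chromosome tests of width and against H3 below. The chromosome tests of covered length and width were added after the data were seen. The log2 changes had an SD of 0.024 over the chromosomes, 3.39 times the 0.0070 that replicates give. Leaving out each library in turn kept chromosome 11 between 0.056 and 0.066 and chromosome 12 between 0.023 and 0.049, both past the threshold each time. The calls of chromosomes 1, 3 and 8 were lost when NIP replicate 2 or either oschz1 replicate was left out. In peaks 2-fold or more above input, chromosome 11 was at 0.034 (adjusted p = 0.287) and 0 of 12 chromosomes were called.

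The relative excess of chromosomes 11 and 12 was larger than that of H3. Without scaling to the library, the change in covered length did not differ from that of H3 on any chromosome (limma adjusted p from 0.399 to 0.477, 0 of 12 even at an unadjusted p under 0.05). H3 covered 149.3 and 136.9 kb per Mb of chromosome 11 in NIP and 147.1 and 130.2 in oschz1, a relative log2 change of -0.002. The interaction with the antibody was 0.063 on chromosome 11 (SE 0.013, limma adjusted p = 2.6e-04) and 0.060 on chromosome 12 (adjusted p = 2.9e-04). Chromosome 1 was at -0.043 (adjusted p = 0.0087). Chromosomes 11 and 12 remained called without each of the 8 libraries in turn, and chromosome 1 was lost without NIP H2A.Z replicate 2, oschz1 H2A.Z replicate 1 or NIP H3 replicate 2.

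**Figure D3:**
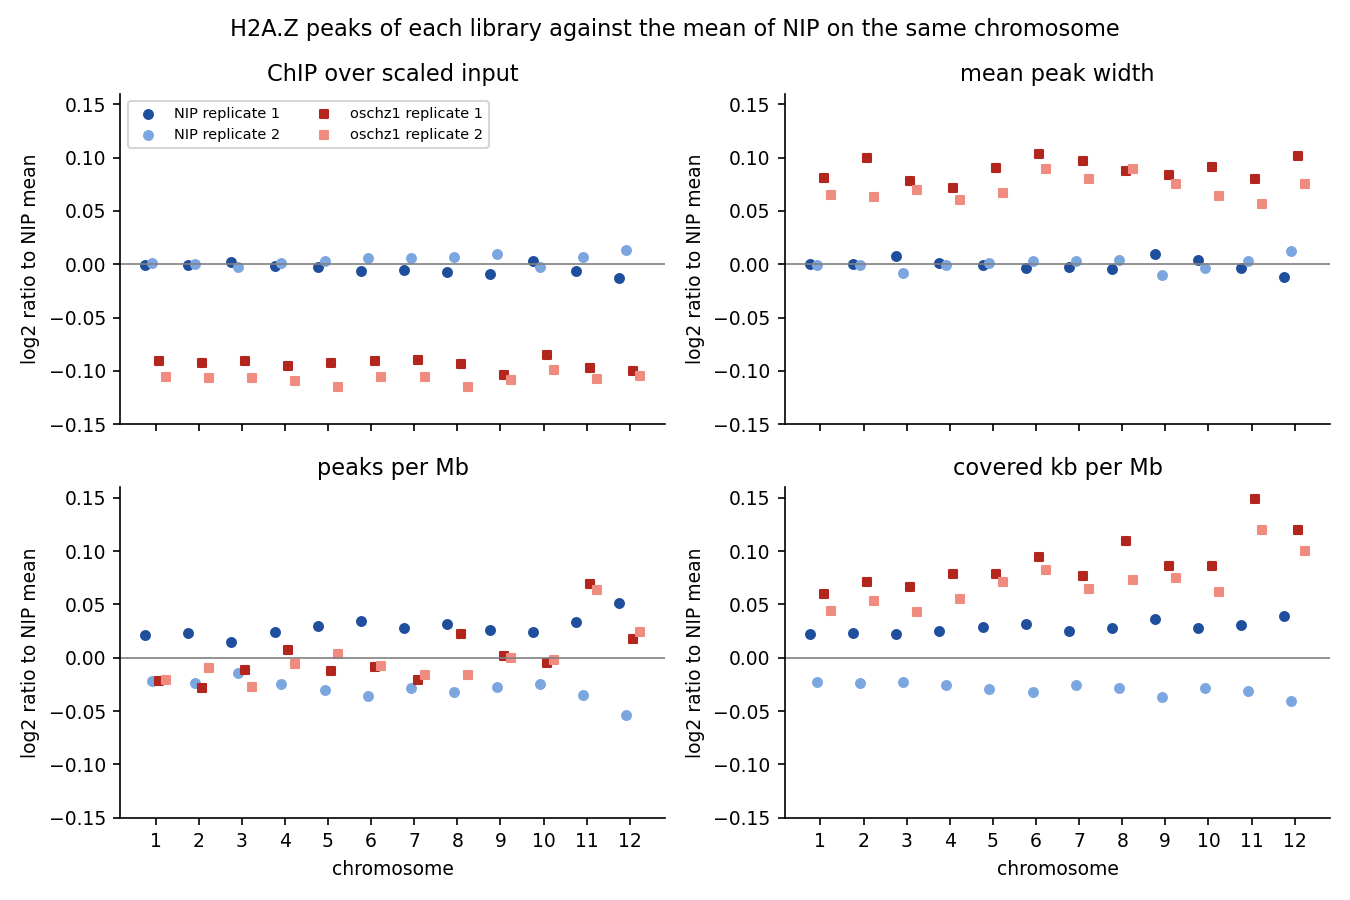
log2 ratio of each H2A.Z library to the NIP mean of the same chromosome, for enrichment, mean peak width, peaks per Mb and covered kb per Mb; circles are NIP and squares are oschz1. Enrichment and width shift by a like amount on every chromosome, whereas in peaks per Mb chromosome 11 is the only one on which both oschz1 libraries lie above both NIP libraries, and its covered length is the highest.

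Width and number shared the change in covered length unequally. Mean width was larger in both oschz1 libraries on 12 of 12 chromosomes, from +4.69% on chromosome 4 to +6.90% on chromosome 6, and limma called all of them (100%). On chromosome 11 the width was 1189 and 1195 bp in NIP and 1260 and 1240 bp in oschz1, +4.84% and so at the low end. The SD of the width change over chromosomes was 0.0091, close to the 0.0078 of replicates. Peak number had an SD of 0.024, which is 2.02 times the 0.012 of replicates. The median width over the whole genome was 1000 bp in all 4 libraries, and on chromosomes 1, 3 and 4 it was 1000 bp in both NIP libraries and 1200 bp in both oschz1 libraries. Chromosome 11 had 110.1 and 105.0 peaks per Mb in NIP and 112.8 and 112.3 in oschz1, +4.70%. It was the only chromosome whose groups did not overlap in peak number. On chromosome 1 the values were 159.2 and 154.5 against 154.5 and 154.6. In edgeR 0 of 12 chromosomes (0%) passed in peak number, 0 of them at an unadjusted p under 0.05. Across the chromosomes the change in covered length had an r of 0.93 with that in peak number and 0.12 with that in width. Over the 376 bins the r was 0.64 and 0.40. Covered length is the product of number and mean width, so a correlation with each is built in. These r describe differences between chromosomes or bins. Over the whole genome covered length changed by +5.25%, width by +5.55% and peak number by -0.28%.

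In the bins, covered length was higher in both oschz1 libraries in 267 of 376 (71%). limma called 75 bins higher (19.9%) and 1 lower (0.266%). Chromosome 11 held 13 of these 75 among its 28 bins, and chromosomes 6 and 12 held 10 each of 32 and 28. Chromosome 1 held 3 of 44, and chromosomes 3, 5 and 10 also held 3 each. The count of 75 was 3 without NIP replicate 2, 14 without oschz1 replicate 1, 21 without oschz1 replicate 2 and 2 among peaks with a q-value of at most 1e-10. Width was larger in both oschz1 libraries in 280 bins (74.5%), with 110 called higher (29.3%) and 1 lower (0.266%), and those 110 became 0 without oschz1 replicate 1, 9 or 10 without a NIP replicate and 39 without oschz1 replicate 2. Peak number was above in 53 bins (14.1%) and below in 65 (17.3%), and edgeR called 0 in either direction (0%), and at an unadjusted p under 0.05 it found 0 lower and 1 higher. Chromosome 11 again stood out in direction, since 23 of its 28 bins had more peaks in oschz1, against 14 of 44 on chromosome 1 and 177 of 376 in all.

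Changes in covered length were weakly correlated between adjacent bins. Over 362 pairs of adjacent bins the log2 change had a Pearson's r of 0.26, while differences between replicates had 0.07 in NIP and 0.03 in oschz1. For peak number the r was 0.19, against 0.14 in NIP and 0.08 in oschz1 between replicates, and for enrichment it was 0.04. The pairs were pooled over chromosomes, so differences between chromosomes enter these values. The bins share libraries, and these values describe them without a test. The SD of the covered length change over bins was 0.060, which is 1.66 times the 0.036 from replicates.

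Relative to the library, 4 bins rose in covered length (1.06%) and 0 fell (0%), with 44 and 21 at an unadjusted p under 0.05. The largest was Chr11:5000001-6000000. It had 107 and 106 peaks in NIP and 130 and 131 in oschz1, and these covered 123.0 and 120.8 kb in NIP against 160.4 and 163.8 kb in oschz1. The relative log2 change was 0.33 (SE 0.03, limma adjusted p = 0.0099). Next to it, Chr11:6000001-7000000 had 104.6 and 100.6 kb in NIP and 125.6 and 122.6 kb in oschz1, a relative change of 0.20 (adjusted p = 0.017). Chr4:3000001-4000000, a sparse bin with 35 peaks in each NIP library and 42 and 40 in oschz1, had 37.0 and 36.2 kb against 45.2 and 46 kb, a relative change of 0.24 (adjusted p = 0.017). Chr12:24000001-25000000, outside the rule of 3 bins and named because the count is small, had 174.4 and 170.8 kb against 205.2 and 205.6 kb, a relative change of 0.18 (adjusted p = 0.034). The groups did not overlap in any of the 4. With the replicate number as a block 0 bins were called. The largest rise that did not pass was in Chr11:24000001-25000000, with 136.2 and 123.2 kb in NIP and 163.8 and 150.8 kb in oschz1 (0.20, adjusted p = 0.13). The count was 0 without either NIP replicate, 16 without oschz1 replicate 1, 14 without oschz1 replicate 2, and 0 at a q-value of at most 1e-10 or a fold of at least 2. The largest change over the bins was 0.36 at the q-value limit and 0.53 at the fold limit, where the SD over the bins was also larger, 0.074 and 0.12 against 0.060.

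Enrichment in these 4 bins fell like elsewhere. In Chr11:5000001-6000000 it was 2.25 and 2.25 in NIP and 2.07 and 2.12 in oschz1, a log2 change of -0.10 and of -0.002 relative to the library. In the other 3 bins the log2 change was -0.14 (Chr4), -0.094 (Chr11:6000001-7000000) and -0.085 (Chr12). More sequence was thus called there at the same loss of ChIP over input within the peaks. The input reads per covered base, as a ratio to the library's own mean, were 0.948 and 0.975 in NIP and 0.993 and 0.958 in oschz1 in Chr11:5000001-6000000, and overlapped between the groups.

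H3 covered length was read in the same bins. In Chr11:5000001-6000000 the H3 peaks covered 99 and 95.4 kb in NIP and 135.0 and 119.0 kb in oschz1, a relative log2 change of 0.42 (limma adjusted p = 1.4e-07), larger than that of H2A.Z. The adjacent Chr11:4000001-5000000 rose in H3 by 0.32 (adjusted p = 3.9e-04), with H2A.Z at 155.0 and 144.0 kb in NIP and 167.8 and 166.2 kb in oschz1, which did not pass (adjusted p = 0.18). These are 2 of 4 bins in which H3 rose (1.06%), beside 5 in which it fell (1.33%). Chr4:3000001-4000000 went the other way in H3, with 161.0 and 155.6 kb in NIP and 143.8 and 135.4 kb in oschz1. By the interaction of antibody and genotype H2A.Z rose relative to H3 in that 1 bin (0.266%), by 0.37 on the log2 scale (adjusted p = 0.020). It fell relative to H3 in 2 bins (0.532%), Chr1:9000001-10000000 and Chr8:20000001-21000000. For Chr11:5000001-6000000 the interaction was -0.09 (adjusted p = 0.50), so no difference between H2A.Z and H3 was detected there.

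**Figure D4:**
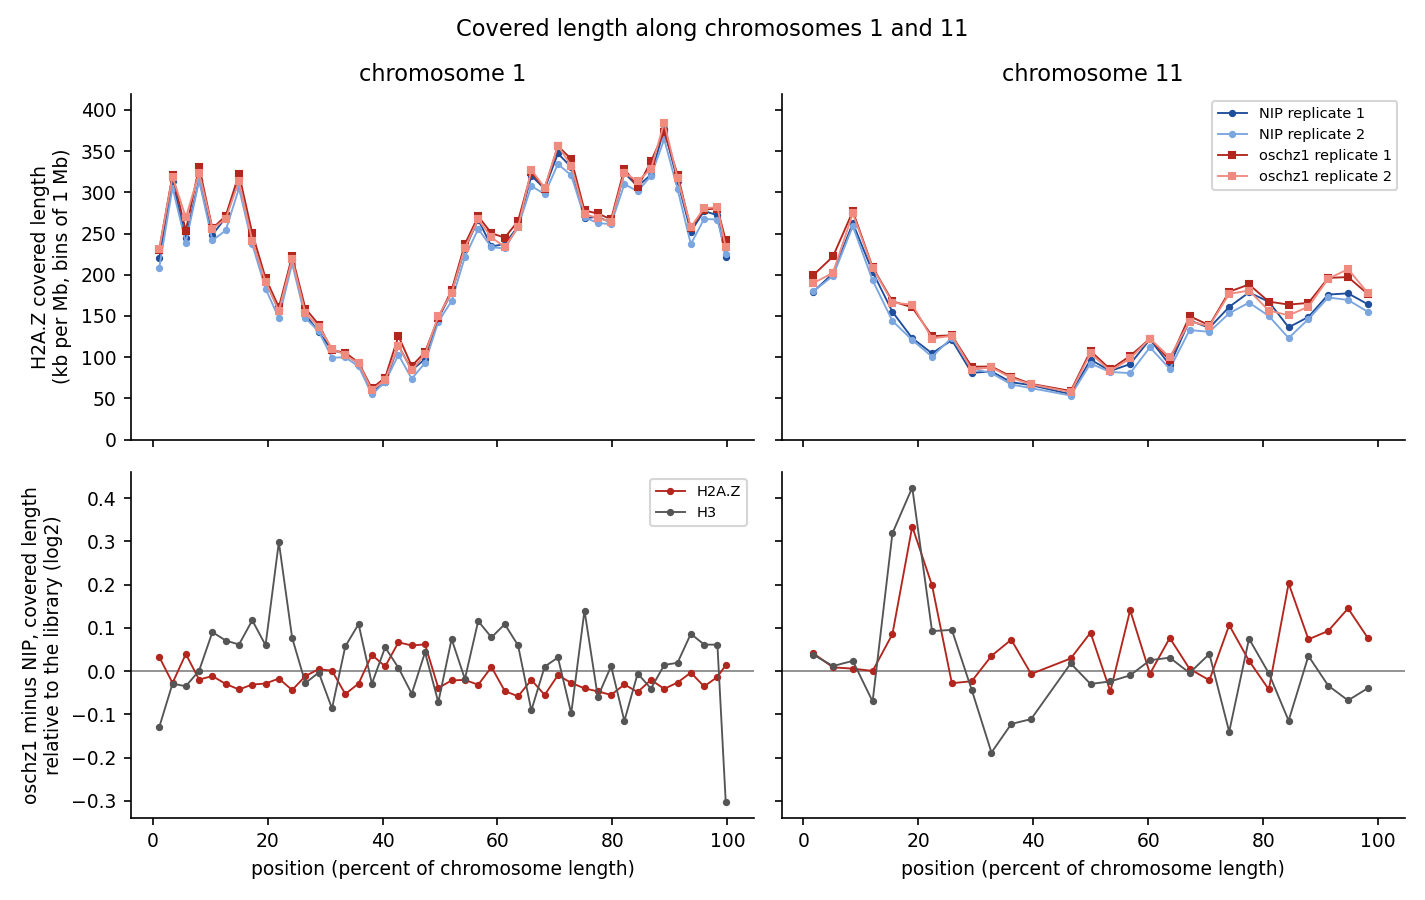
Position as percent of chromosome length against H2A.Z covered length of each library (top, kb per Mb in bins of 1 Mb) and against the log2 difference oschz1 minus NIP in covered length relative to the library for H2A.Z and H3 (bottom), for chromosome 1 on the left and chromosome 11 on the right. On chromosome 11 both lines peak at the sixth bin, at 0.33 for H2A.Z and 0.42 for H3, and 21 of 28 H2A.Z values lie above 0, against 11 of 44 on chromosome 1.

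Within Chr11:5000001-6000000 the gain was uneven over windows of 100 kb. Between 5.9 and 6.0 Mb the H2A.Z peaks covered 3.2 and 3.0 kb in NIP and 10.4 and 10.4 kb in oschz1, and the H3 peaks covered 0.4 and 0.8 kb against 13.8 and 11.6 kb. Between 5.0 and 5.1 Mb the H2A.Z values were 8.6 and 8.2 kb against 17.8 and 16.2 kb, and the H3 values 2.2 and 2.4 kb against 14.4 and 12.6 kb. In these windows NIP had at most 4 H3 peaks and oschz1 at least 10. Between 5.2 and 5.3 Mb the H2A.Z peaks covered 3.6 and 3.8 kb in NIP and 10.2 and 13.8 kb in oschz1. H3 differed less clearly there, with 2.8 and 6.6 kb against 10.8 and 7.8 kb. Between 5.7 and 5.8 Mb, by contrast, H2A.Z covered 22.8 and 22.8 kb in NIP and 22.4 and 23.4 kb in oschz1, with H3 at 9.0 and 8.6 kb against 10.2 and 8.8 kb.

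**Figure D5:**
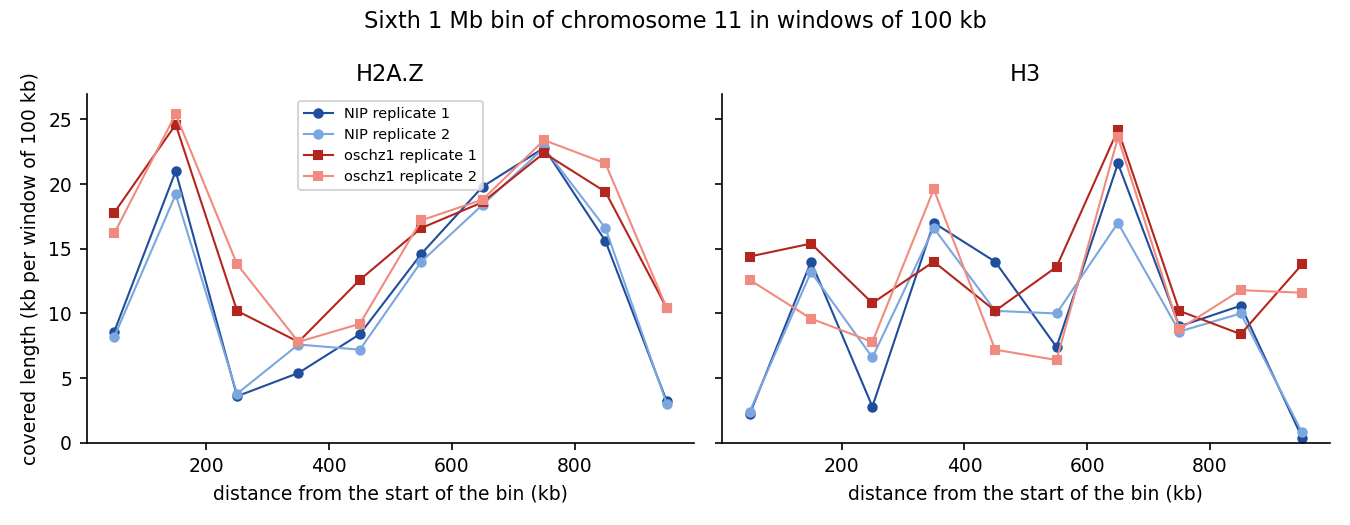
Covered length in kb per window of 100 kb within Chr11:5000001-6000000, against the distance from the start of the bin, for the H2A.Z libraries on the left and the H3 libraries on the right. In the first and the last window the called peaks of NIP cover at most 8.6 kb for H2A.Z and 2.4 kb for H3. Those of oschz1 cover more there for both antibodies, while the eighth window is the same in all H2A.Z libraries within 1 kb.

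A search of all 3732 windows of 100 kb, added after these values were seen, asked where both H3 libraries of oschz1 covered at least 5 kb and at least 2 times both NIP libraries. It found 5 windows, 4 of them on chromosome 11 between 4.9 and 6.6 Mb, and in these 4 H2A.Z was also above in both oschz1 libraries. Summed over the 4 windows H2A.Z covered 22.0 and 22.0 kb in NIP and 55.8 and 53.2 kb in oschz1. H3 covered 13.6 and 16.4 kb against 78.8 and 62.8 kb. Both histones thus had few peaks in NIP there. The tables hold no input reads outside peaks, so whether the 2 plant materials differ in sequence or copy number in these windows was not tested, and covered length there cannot be read as a change of H2A.Z alone. Over all windows 32.9% had H2A.Z above in both oschz1 libraries, and 40.7% on chromosome 11. The converse search found 2 windows, none on chromosome 11. Without the 7 windows chromosome 11 had 132.0 and 126.4 kb per Mb in NIP and 142.1 and 139.4 in oschz1, +8.95% in place of +9.77%. It was then 0.051 above the genome on the log2 scale, still the largest of the 12, with chromosome 12 at 0.036. Leaving out these windows thus removed a part of the excess of chromosome 11. Windows that missed the limits of the search, such as that between 5.2 and 5.3 Mb, stayed in.

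Peaks present in both libraries of one genotype and touching no peak of the other were counted per chromosome. There were 872 such peaks in NIP, 2.34 per Mb, and 1218 in oschz1, 3.26 per Mb. They were 2.01% and 2.84% of the peaks present in both libraries of NIP and of oschz1. The peaks of oschz1 spanned more sequence to touch, and NIP replicate 2 had the fewest reads. How far the difference between the 2 counts depends on this was not tested. Chromosome 11 had 156 peaks found only in oschz1, 5.38 per Mb or 5.41%. It had 51 found only in NIP, 1.76 per Mb or 1.84%. On chromosome 1 the counts were 111 and 123, and on chromosome 3 they were 88 and 97, so that there the NIP peaks were the more numerous. Chromosome 6 followed chromosome 11 in density, with 125 oschz1-only peaks, 4.0 per Mb or 3.54%. By share chromosome 12 came next to chromosome 11, with 98 oschz1-only peaks or 3.98%. Peaks of 1 genotype had a lower median fold over input than all peaks of their library, in the genome and on chromosome 11 alike. Peaks missed in the other genotype tend to lie near the calling limit, so a lower fold is partly built in. The median fold of oschz1-only peaks was 1.67 and 1.65 over the genome, with 26.6% and 25.7% of them at 2 or more, and 1.78 and 1.75 on chromosome 11, with 30.6% and 35.4%. NIP-only peaks of chromosome 11 had medians of 1.68 and 1.82. All peaks of chromosome 11 had a median of 2.01 in both oschz1 libraries, and of 2.12 and 2.17 in NIP. In bins, Chr11:5000001-6000000 had 20 oschz1-only and 3 NIP-only peaks and Chr11:6000001-7000000 had 14 and 5, where the median bin had 3 and 2.

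Reads per bin were read as a share of all reads in peaks, which moves with covered length. By edgeR 3 bins rose (0.798%), all on chromosome 11, and 1 fell (0.266%). Chr11:5000001-6000000 held 1734 and 1810 rpm (reads in 1000000 reads in peaks) in NIP and 2230 and 2306 in oschz1, a log2 change of 0.36 (adjusted p = 0.045). Chr11:6000001-7000000 rose by 0.21 and Chr11:26000001-27000000 by 0.13, both with an adjusted p of 0.045. Chr8:24000001-25000000 held 4129 and 4136 rpm in NIP and 4010 and 3979 in oschz1 and fell by 0.049 on the log2 scale (adjusted p = 0.046). Covered length in that bin overlapped, with 279.2 and 263.2 kb against 280.4 and 270.8 kb. Leaving out any 1 library left 0 of these calls, and DESeq2 made 51 lower and 67 higher.

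The change was of a like size at all distances from the chromosome end. Enrichment changed by -6.64% in the 53 bins under 2 Mb from an end, by -6.76% in 72 bins at 2 to 5 Mb, by -6.47% in 119 bins at 5 to 10 Mb and by -6.99% in 132 bins at 10 Mb or more. Covered length changed by +5.79%, +5.57%, +4.80% and +5.16% in the same order, with oschz1 above NIP in each class, although NIP itself went from 233.9 and 225.4 kb per Mb near the ends to 134.6 and 129.3 in the interior. Peak density did separate the percent change in covered length. Bins were split by mean peak number over the 4 libraries into 4 classes of 93 to 95 bins. In the lowest class the covered length was 70.5 and 67.2 kb per Mb in NIP and 74.3 and 73.3 in oschz1, +7.16%, and in the highest it was 297.7 and 287.9 against 305.9 and 302.0, +3.81%. The classes between were at +7.39% and +5.36%. In kb per Mb the gain was larger in the highest class, where the mean went from 292.8 in NIP to 304.0 in oschz1. In the lowest class it went from 68.9 to 73.8. Peak number changed by +1.55%, +1.57%, -0.77% and -1.51% from the lowest to the highest class, and in the highest class there were 199.0 and 193.3 peaks per Mb in NIP and 193.1 and 193.3 in oschz1, with replicate 2 of both genotypes virtually equal. Enrichment stayed between -6.58% and -7.02% in all 4 classes. Each of these class comparisons has the exact permutation limit of 0.33 given above.

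The difference between H2A.Z and H3 was also taken along the genome. In edgeR's interaction of antibody and genotype 236 of 376 bins were lower for H2A.Z (62.8%) and 0 higher. The count ranged from 11, without oschz1 H2A.Z replicate 2, to 286, without NIP H3 replicate 2, and was 55 without NIP H2A.Z replicate 2, 63 without NIP H3 replicate 1, 82 without oschz1 H3 replicate 2 and 128 without NIP H2A.Z replicate 1. The number of bins called depended on single libraries in this way while 0 bins were called higher in any of these fits.

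Single regions whose start and end were shared by all 4 libraries, the ones with the largest rise in their bin among those with at least 200 ChIP reads in each library, were read in the 4 bins that rose in relative covered length. Chr4:3958601-3959800 had 636 and 498 ChIP reads in NIP and 640 and 584 in oschz1, and an enrichment of 2.66 and 2.72 against 3.61 and 3.36. Chr11:5755201-5756800 had 456 and 350 reads against 462 and 444, and an enrichment of 2.213 and 2.078 against 2.299 and 2.358. Both were above NIP in both oschz1 libraries, against the fall of their bins, and they were picked for that. In Chr11:6000001-7000000 the region chosen by the same rule, Chr11:6084601-6086200, had an enrichment of 1.58 and 1.84 in NIP and 1.51 and 1.92 in oschz1, and the groups overlapped. In Chr12:24491801-24493000 the enrichment of 2.34 and 3.31 in NIP and 3.67 and 3.48 in oschz1 shows how far 2 replicates of 1 region can lie apart. In 5 of the bins named for other reasons the region with the largest fall was taken instead, and these changed by -0.14 to -0.61 on the log2 scale. Each region was chosen for its extreme value and stands alone for its bin, so these values do not show how the regions of a bin moved together.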

How the data were processed

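The authors mapped reads to the MSU rice genome with Bowtie2, removed duplicates and called H2A.Z peaks for each library against its input with SICER (windows of 200 bp, FDR 0.05). The H3 tables have the same layout, and their caller is not given in the sources used here. The deposited tables give counts of ChIP and input reads per peak, p-value, q-value and fold of ChIP over input; only reads in peaks are counted, so the depth given is that in peaks. The deposited fold gave the constant that scales the input. Peaks went to bins of 1 Mb by their midpoint, and bins with a mean of under 20 peaks were left out, as were 22 to 26 peaks per H2A.Z library outside the 12 chromosomes. Enrichment, reads and peak number were tested with the quasi-likelihood test of edgeR 4.0.16 with log scaled input as offset where named, and covered length (signal, pseudocount 1 kb in bins) and width with limma 3.58.1 on log2 values, in R 4.3.3. p-values were Benjamini-Hochberg adjusted over all bins or chromosomes, with 0.05 as threshold. Scripts were tested on simulated data. Alternatives were DESeq2 1.42.0, limma, TMM, other bins, stricter peaks (q at most 1e-10, fold of at least 2, or the same extent), no filter, a pseudocount of 0.1 kb, a replicate block and leaving out each library; the tests of covered length, width and number over chromosomes and those against H3 covered length were added after seeing the data. Several relative chromosome p-values of edgeR were numerically 1, so limma was run beside it. Bins named are the 5 largest changes each way in relative enrichment and the 3 in relative covered length among bins past the threshold whose groups do not overlap. Members and lists were chosen with earlier results of these data known. Nothing says whether replicates came from separate plantings beyond being named biological replicates. No annotation of the MSU build was used here, so no genes are placed and the heading-date genes listed for this work are not analysed here.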

Additional observations from a re-analysis of the deposited data

Results flagged for a closer look

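Some results differed between the 2 antibodies under the same contrast of oschz1 with NIP. H2A.Z enrichment fell relative to H3 in 236 bins of 1 Mb (edgeR) and on 12 chromosomes (limma). The change of relative covered length differed on chromosome 1 (-0.043 on the log2 scale), chromosome 11 (0.063) and chromosome 12 (0.060). It also differed in Chr1:9000001-10000000 (-0.32), Chr4:3000001-4000000 (0.37) and Chr8:20000001-21000000 (-0.34). In the bins of chromosomes 1 and 8 the H3 length changed by 0.30 and 0.24 and H2A.Z did not pass.

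Outside the 12 chromosomes the peak tables of the oschz1 H2A.Z libraries held 25 and 26 peaks, against 22 and 23 in NIP. These peaks entered no comparison.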

How the results depend on the processing

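The fall of enrichment on 12 of 12 chromosomes and the absence of calls relative to the library on chromosomes held under every alternative run. Genome-wide, the change in enrichment was -5.15% at a fold of at least 2 and -7.59% in peaks of the same extent. Peaks per Mb changed by -2.42% at a q-value of at most 1e-10 and by -10.99% at a fold of at least 2, and by -2.13% to 1.63% when a library was left out. Covered length reversed to -6.67% at a fold of at least 2 and was 3.31% to 7.26% without a library. Width was 6.28% at the q-value limit, 4.85% at the fold limit and 4.92% to 6.18% without a library. The cause of these differences was not tested.

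Chromosomes called higher in covered length numbered 0 at the q-value limit, 0 at the fold limit (where 7 were lower) and 0 to 12 without a library. Relative to the library 0 chromosomes were called at the fold limit and 2 to 6 without a library; chromosome 11 was at 0.034 and chromosome 12 at 0.014 at the fold limit, and chromosome 8 reversed to -0.0044. In peak number 12 chromosomes were called at the fold limit, all lower, and 0 to 1 without a library.

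Bins called lower in enrichment were 101 in peaks of the same extent, 556 of 738 in bins of 500 kb and 265 to 322 without a library. Relative to the library 1 bin was called with bins shifted by 500 kb and 0 to 4 without a library. In reads, lower and higher calls were 9 and 7 without a filter, 51 and 67 in DESeq2, 94 and 9 with the recovered library size, and 0 and 0 without a library. In covered length 2 bins were higher at the q-value limit, 0 at the fold limit, 40 in bins of 500 kb and 3 to 110 without a library. Relative to the library 0 were higher at either limit, 15 in bins of 500 kb and 0 to 16 without a library. Bins called wider were 0 at either limit and 0 to 39 without a library. Bins lower for H2A.Z relative to H3 were 11 to 286 without a library.

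Bin by bin the replicate numbers did not pair the libraries: deviations of same-numbered libraries had an r of -0.037 for enrichment and 0.019 for covered length over 376 bins. A correlation over bins cannot show a shift of whole libraries. Replicate 1 covered more than replicate 2, with 178.2 against 171.6 kb per Mb in NIP and 185.3 against 182.9 in oschz1. Enrichment was higher in replicate 2 of NIP but in replicate 1 of oschz1. Pairing of whole libraries was not tested. With the replicate number as a block, 344 bins were lower in enrichment and 136 higher in covered length, 0 higher in relative covered length, 2 lower and 1 higher in reads, and 3 chromosomes were called in relative covered length and 12 in covered length. With libraries that share an input as a block, 247 bins were lower for H2A.Z relative to H3.

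With 2 libraries a group and counts limited to reads in called peaks, a departure of 0.0085 on the log2 scale (SE 0.0054), the largest between a chromosome and its genome in enrichment, did not pass. Where a library is left out, 1 library stands for its group and is assumed to vary like the others.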
